A study of Mus musculus with 4 samples.

Results

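The cytosolic ribosomal protein genes are 86 of the 32285 genes in the count files. They were taken by symbol, as the names that begin with Rpl or Rps followed by a digit plus Rplp0, Rplp1, Rplp2 and Rpsa, without 5 rows whose names mark a pseudogene and 10 rows of the S6 kinase family. Of these, 52 carry a large subunit name and 34 a small subunit name. Abundance was counted in UMIs (unique molecular identifiers, each standing for 1 captured transcript). The 5 genes with the fewest were Rps19bp1, which encodes a binding partner of the Rps19 protein and not a ribosomal protein, with 9850 UMIs over all kept cells, Rps27rt, a retrogene copy of Rps27, with 7752, Rpl39l with 406, Rpl3l with 155 and Rpl10l with 0.

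The libraries came from brain cell suspensions enriched for glia, taken from male mice with a targeted replacement of mouse Apoe by the human APOE3 or APOE4 allele. Both genotypes are humanized in this way, so no group had the mouse gene. Mice of each genotype received NaCl, or 5 mg/kg bacterial lipopolysaccharide (LPS, a cell wall component that sets off systemic inflammation) into the peritoneum, and the LPS mice were killed 24 h later. Each of the 4 groups (APOE3 NaCl and APOE3 LPS, then APOE4 NaCl and APOE4 LPS) was 1 library pooled from 3 mice. Where 4 values follow each other, they stand in this library order.

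Ribosomal proteins are built into the large and small subunits of the ribosome together with ribosomal RNA. Their mRNAs are among the most abundant of most cells, begin with a run of pyrimidines (the 5′ terminal oligopyrimidine or TOP motif), and are translated under the control of the mTORC1 kinase and Larp1. In brain, cells differ widely in the part of their mRNA given to this group, and immune cells that become activated are known for a high output of protein.

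Start sites of the genes were read from RefSeq promoter entries (build GRCm38.p6), which 66 of the 86 genes matched, at 78 annotated starts, and 20 did not. The starts of 6 genes are shown, 18 bases before and 12 after the start on the gene's own strand: the 3 genes with the largest LPS to NaCl ratio in APOE3 microglia among those of at least 200 UMIs (Rps2, Rpsa, Rpl14), an abundant gene with a ratio below 0 there (Rps27), and 2 with long pyrimidine runs. Capitals mark the longest unbroken run of C and T within 20 bases of the start.
Rps2, chr17:24720045-24720074, + strand: cgtaggcagtcgagatctcgcgCTTCTTgg
Rpsa, chr9:120127748-120127777, + strand: gctgtgggttatttaaggacgtcaTTTCCg
Rpl14, chr9:120571499-120571528, + strand: gcagggcgggCCCTCTCTCTTCTCgctgag
Rps27, chr3:90213637-90213666, - strand: aggatttccgctttcgCTCCTTTCCggcgg
Rpl7a, chr2:26910789-26910818, + strand: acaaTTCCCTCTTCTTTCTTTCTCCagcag
Rpl35, chr2:39005120-39005149, - strand: agtcggccccgCCCTTTCCTCTTTCTCTCg

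A run of at least 8 pyrimidines lay within 20 bases of 31 of the 78 starts (39.7%), against 16% of all 32851 annotated starts. The motif CCGGAA, read on both strands over the 300 bases of each entry, was found at 37 starts (47.4%) against 14.9% of all. Rps2 and Rpsa had runs of only 6 and 5 bases, Rps27 had 9, Rpl14 14, Rpl35 18 and Rpl7a 21. In microglia the median LPS to NaCl log2 ratio was 0.62 in APOE3 and 0.93 in APOE4 over the 30 genes with such a run at a start, and 0.56 and 0.76 over the 33 genes without one, and the ranges of both sets overlapped.

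The 4 libraries held 73288965 to 114378032 UMIs in 14122 to 29361 barcodes, and pairs of libraries shared 61 to 140 barcode sequences. After filtering 12002 to 18182 cells a library remained, with a median of 2311 UMIs in APOE4 LPS and 3950 to 5652 in the others. Doublets were called and removed in 3 libraries (1069 to 1404), while the caller marked 0 of 18182 in APOE4 LPS and had not worked there. Cells were grouped in 33 clusters without the 86 genes, and clusters were named astrocyte-like, microglia-like and so on from markers. Below, these classes are called astrocytes, microglia and so on. Unnamed clusters held 0.65 to 3.36% of cells in 3 libraries and 42.7% in APOE4 LPS, mostly cluster 9, with 6579 cells of few UMIs led by Saa3, Ccl5, AW112010, Msr1 and Lcn2. The APOE4 LPS library stood apart in this way, and in astrocytes, oligodendrocyte precursors, pericytes, ependymal cells and neurons it also held the highest summed level of microglia markers. With 1 library a group no test was possible and no difference has a replicate check. Intervals are exact 95% intervals that cover counting error only, and a gene was called higher or lower when its log2(CPM + 1), where CPM is its UMIs scaled to a fixed total over the class, differed by at least 0.32.

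The share of a class's UMIs that came from ribosomal protein genes ran from 1.5% in oligodendrocyte precursors of APOE3 NaCl to 27.3% in T or NK cells of the same library, among classes with at least 50 cells in a library. After T or NK cells came border-associated macrophages (12.8 to 15% over the libraries), fibroblasts (11.8 to 13.5%) and microglia (9.17 to 15.9%). Neuroblasts or neural progenitors (9.05 to 11.4%), endothelial cells (8.34 to 9.49%) and choroid plexus epithelium (7.28 to 8.67%) followed, and their ranges overlapped with those of their neighbours in this order. Pericytes lay at 5.45 to 8.49%, ependymal cells at 5.41 to 7.93% and mature oligodendrocytes at 3.81 to 4.57%. Erythroid cells ran from 3.41 to 11.4% over 3 libraries, and neutrophils stood at 3.90% in the 1 library with enough of them. The 11.4% came from 1455 erythroid cells of APOE4 LPS with a median of 1400 UMIs, against 6100 and 5512 in APOE3 NaCl and APOE4 NaCl. After globin genes, the erythroid cluster 16 was led by Saa3, Ccl5 and AW112010, as was cluster 9, so its APOE4 LPS cells are not clearly erythroid. Mature neurons (2.25 to 6.83%), oligodendrocyte precursors (1.5 to 3.23%) and astrocytes (1.87 to 2.74%) were among the lowest, and their ranges overlapped as well. Microglia varied most across the libraries among the 4 largest classes, from about 9% with NaCl to 13.8 and 15.9% with LPS.

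**Figure D1:**
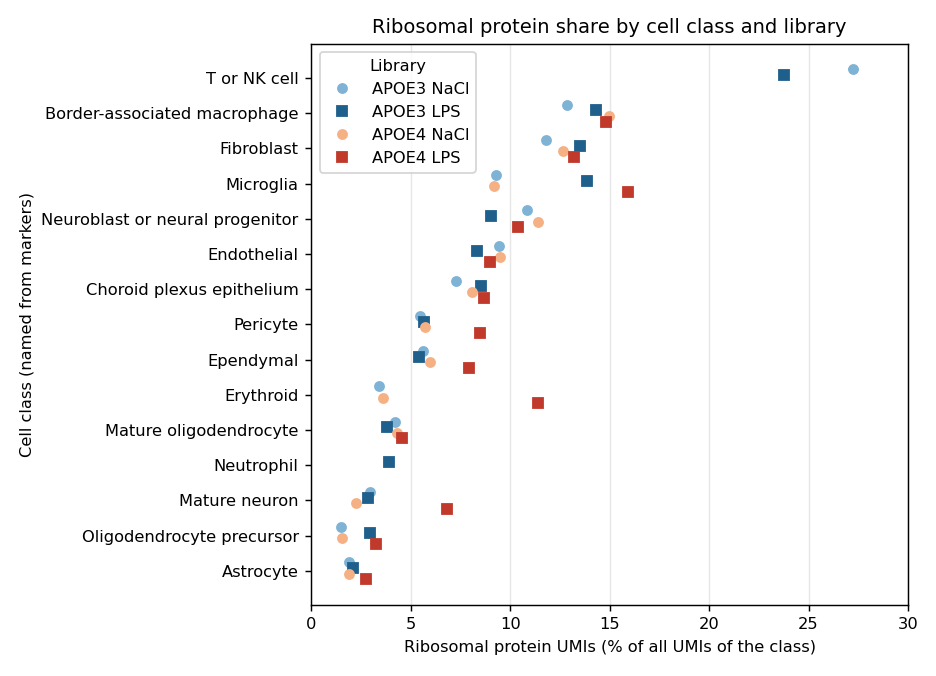
Ribosomal protein UMIs as a percentage of all UMIs of a class (x axis), for each cell class (y axis) and library with at least 50 cells; circles are NaCl and squares LPS libraries. Microglia sit near 9% in both NaCl libraries and at 13.8% and 15.9% in the LPS libraries, while astrocytes stay between 1.87% and 2.74%.

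Microglia, the resident macrophages of the brain, held 9.27% (interval 9.25 to 9.28), 13.8%, 9.17% (9.16 to 9.19) and 15.9% ribosomal protein UMIs. Both LPS libraries were above both NaCl libraries, by a log2 ratio of 0.58 in APOE3 and 0.80 in APOE4. Of 84 genes with enough UMIs to compare, 68 were called higher and 1 lower with LPS in APOE3, where 14.7% of all 15270 genes compared were called higher and 33.4% lower. In APOE4, 77 were higher and 1 lower, against 21.8% and 37.5% of all genes. The lower ones were Rps27rt in APOE3 and Rpl39l, with few UMIs, in APOE4. The median gene of all those compared differed by -0.16 and -0.15, and the median ribosomal protein gene by 0.62 and 0.82. Scaled by the median gene in place of the total, the ratio of the summed group was 0.76 and 0.95. Large and small subunit genes had similar ratios, with medians of 0.59 and 0.66 in APOE3 and 0.82 and 0.79 in APOE4.

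Rps2 and Rpsa, both of the small subunit, had the highest ratios in both genotypes among genes of at least 200 UMIs. Rps2, a core small subunit protein near the mRNA channel, stood at 612, 1756, 558 and 2205 CPM, log2 ratios of 1.52 (1.49 to 1.55) and 1.98 (1.95 to 2.02). Rpsa, a small subunit protein also known as a laminin receptor, went from 708 to 1905 CPM in APOE3 and from 638 to 2262 in APOE4. For both genes the 2 NaCl libraries lay close together and far below the 2 LPS libraries. Rps19, whose human counterpart is the gene most often mutated in Diamond-Blackfan anaemia, was 721, 1650, 774 and 1964 CPM. Rps6, the ribosomal target of the S6 kinases, was 501, 960, 472 and 1096 CPM. Rps15 had a ratio of 0.73 in APOE3 but 1.56 in APOE4, where the NaCl library was the lowest of the 4 (553, 915, 379 and 1118 CPM).

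**Figure D2:**
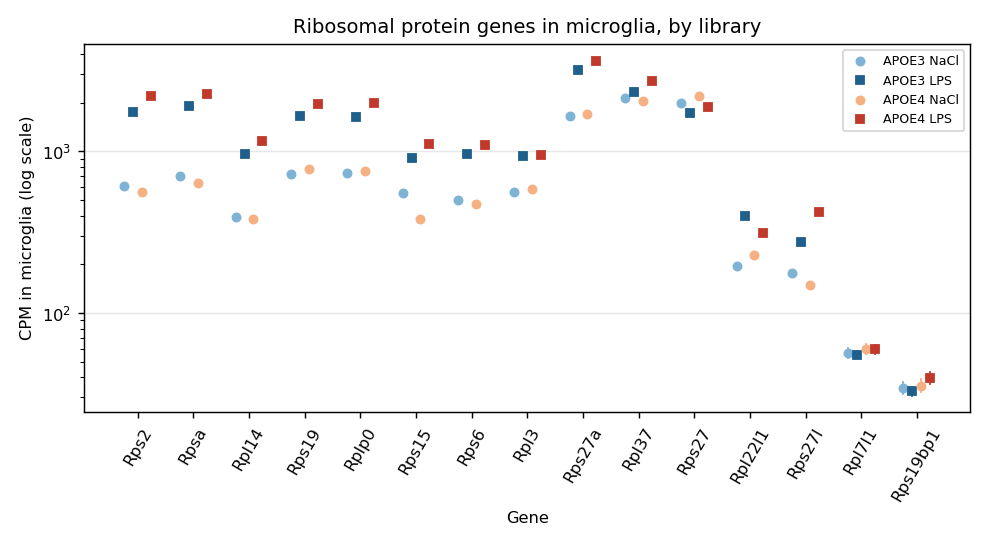
CPM in microglia (y axis, log scale) of 15 ribosomal protein genes (x axis) in each library; points are the summed counts of 1 library and bars, mostly smaller than the points, exact 95% counting intervals. Rps2 and Rpsa stand more than 2 times higher in both LPS libraries, whereas Rps27, Rpl7l1 and Rps19bp1 do not.

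Among the large subunit genes the stalk proteins, which recruit the elongation factors, were all higher with LPS. Rplp0 stood at 732, 1625, 756 and 2007 CPM, Rplp1 at 3443, 5369, 3343 and 5746, and Rplp2 at 1362, 2250, 1245 and 2845. Rplp0 was thus more than 2 times as high with LPS in both genotypes, while Rplp1, the more abundant, had ratios of 0.64 and 0.78. Rpl14 was 391.7, 963, 384 and 1165 CPM, the largest ratio of a large subunit gene with at least 200 UMIs (1.30 and 1.60). Rpl5 and Rpl11, which join the small ribosomal RNA of the large subunit and can bind Mdm2, had ratios of 0.77 and 1.22, and of 0.56 and 0.77. Rpl3, at the catalytic centre, had 0.74 and 0.71, and Rpl13a, part of an interferon-gamma dependent translation control complex in myeloid cells, 0.95 and 1.18. Rps27a, made as a fusion with ubiquitin, was 1660, 3191, 1698 and 3612 CPM.

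A few genes did not follow the group. Rps27, a small subunit gene of high abundance, had ratios below 0 that did not reach the call, at 1989 and 1722 CPM in APOE3 and 2204 and 1876 in APOE4 (-0.21 and -0.23). Rps27rt, a near-identical copy whose counts are uncertain for that reason, had -0.46 and -0.18. The 2 symbols in the group that do not name a ribosomal protein of the mature particle differed least: Rpl7l1, an Rpl7 relative that acts in ribosome assembly, had -0.03 (-0.15 to 0.09) and 0.00, and Rps19bp1 -0.07 and 0.16. Rpl37 had small ratios, 0.12 in APOE3 and 0.41 in APOE4, as had Rpl30, with 0.23 and 0.25. Rps29, the gene with the most UMIs of the group (4.81% of them), was 6426, 7384, 6320 and 8178 CPM, ratios of 0.20 and 0.37.

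Some paralog pairs differed in their ratios. Rps27l, a p53-responsive relative of Rps27, was 177, 274, 149 and 421 CPM in microglia, called higher with LPS in both genotypes, unlike Rps27. Rpl22l1 was 196, 400, 228 and 314 CPM, so its ratio was 1.03 in APOE3 and 0.46 in APOE4, while Rpl22 had 0.23 and 0.63. Rpl36a and Rpl36al were close to each other, with 0.55 and 0.57 in APOE3 and 0.91 and 0.82 in APOE4. Rpl39 had 0.24 and 0.38, and its rare relative Rpl39l was at 1.29, 3.52, 5.49 and 3.09 CPM, or 19, 119, 76 and 48 UMIs. Rpl3l, the muscle form of Rpl3, had 2 or fewer UMIs in each microglia sum, under the floor of 3 counts, so no ratio is given.

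Other genes of translation, in lists chosen by function, were counted in microglia by the same call, which 14.7% (APOE3) and 21.8% (APOE4) of all genes passed as higher and 33.4% and 37.5% as lower. Of 10 elongation and termination factors, 8 were higher in APOE3 and 9 in APOE4, among them Eif5a (167 to 296 CPM, and 153 to 559) and Eef1g (132 to 263, and 117 to 375). Of 52 ribosome biogenesis genes 23 were higher in APOE3 and 42 in APOE4, with 2 and 1 lower, and Nhp2, a snoRNP protein, went from 43 to 77 CPM and from 37 to 141. Of 36 initiation factors 11 and 21 were higher, and of 16 nascent chain and other TOP mRNAs 12 and 14. The mitochondrial ribosome genes, which serve another ribosome, were higher in 34 and 53 of 78 cases, and nuclear oxidative phosphorylation genes in 50 and 69 of 82. Genes of mTORC1 and the S6 kinases were mostly not called (1 higher and 1 lower of 10 in APOE3, 2 and 2 in APOE4). Among 19 repressors of translation 6 were higher and 6 lower in APOE3 and 5 and 6 in APOE4, with Ddit4 (13 to 56 CPM, and 13 to 84) and Eif4ebp1 (32 to 86, and 30 to 100) higher and Pdcd4 lower (111 to 43, and 128 to 50). Of 22 interferon-stimulated genes 21 and 20 were higher.

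The microglia difference ran between clusters more than within them. Microglia of the NaCl libraries were mostly in clusters 5 and 6 (1592 of 3201 cells in cluster 6 in APOE3) and those of the LPS libraries in clusters 20, led by Tnf and Il1b, and 21, led by Cd244a, Alox5 and Ccl12 (2250 of 4300 cells in cluster 21 in APOE3). Within cluster 20 the ribosomal protein share was 15.3% (84 cells), 13.7% (1984), 13.6% (25) and 14.9% (845). Within cluster 6 it was 9.31%, 8.97% (45 cells), 9.79% and 8.94% (95 cells). Within cluster 21 it was 15.4% (63 cells), 14.2%, 13% (23 cells) and 17.5%. The few NaCl cells placed in clusters 20 and 21 thus held 13 to 15.4%, far above the NaCl cells of clusters 5 and 6. They lay near the LPS cells beside them, except for APOE4 in cluster 21, with 13% in 23 NaCl cells and 17.5% with LPS. Over all microglia the median cell held 8.45, 13, 8.34 and 14.4%.

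**Figure D3:**
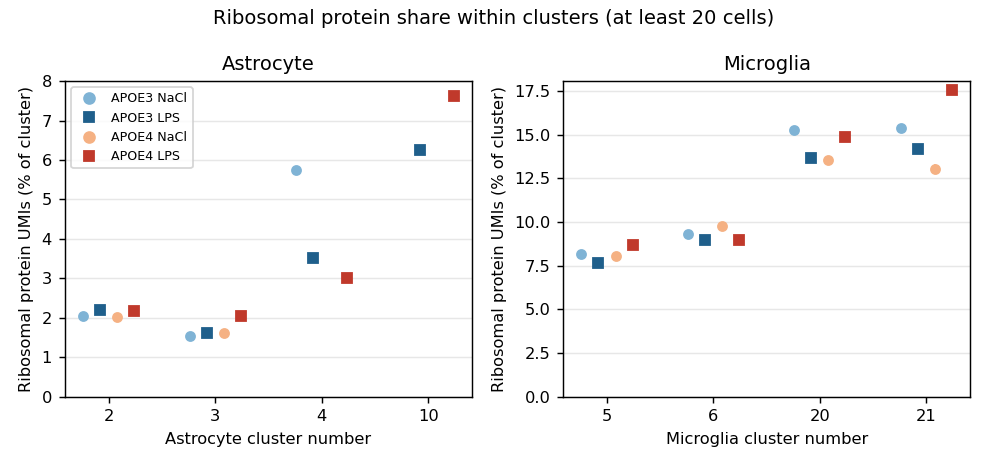
Ribosomal protein UMIs as a percentage of the UMIs of each astrocyte (left) and microglia (right) cluster with at least 20 cells in a library (x axis, cluster number); circles are NaCl and squares LPS libraries. In microglia clusters 20 and 21 lie above clusters 5 and 6 in every library, and astrocyte cluster 10 lies at 6.25% and 7.63%, far above clusters 2 and 3.

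Several measures moved with the LPS microglia. Their median UMIs were 4201, 7269, 4480 and 6748. The share was higher with LPS in each of 4 ranges of UMIs per cell. With every cell thinned to 1000 UMIs it was 9.15, 13.4, 9.0 and 15%. Thinning at random keeps each cell's share on average, so these values cannot show the part of depth. Mitochondrial UMIs were 1.30, 2.78, 1.5 and 2.46% and Malat1, a nuclear RNA, 1.61, 0.83, 1.53 and 0.90%. The summed level of the microglia markers was 19315, 10709, 20139 and 8979 CPM. Markers of astrocytes (435, 395, 391 and 301 CPM) and of oligodendrocytes (222, 140, 277 and 131 CPM) were no higher with LPS. The part of depth, Malat1 and mitochondrial RNA in the result was not tested.

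Astrocytes, the star-shaped support cells of neurons, held 1.90% (1.89 to 1.91), 2.11% (2.1 to 2.12), 1.87% (1.86 to 1.88) and 2.74% (2.73 to 2.75) ribosomal protein UMIs. The first 3 libraries lay close together and APOE4 LPS above them. In APOE3, 19 of 84 genes were called higher with LPS and 1 lower, against 12.3% and 18.3% of all 16071 genes. In APOE4, 73 were higher and 1 lower, against 19.8% and 17.1%. The lower ones were Rps19bp1 in APOE3 and Rpl3l, with 11 and 26 UMIs, in APOE4. The log2 ratio of the group was 0.15 (0.14 to 0.16) in APOE3 and 0.55 (0.54 to 0.56) in APOE4.

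The gene with the highest ratio was Rplp0, at 110, 168, 98.2 and 231 CPM, ratios of 0.61 (0.52 to 0.70) and 1.24 (1.14 to 1.33). Rps4x, the X-linked form of a small subunit protein, was 171, 256, 177 and 373 CPM. Rps12 followed with 0.49 and 1.20, Rplp1 with 0.49 and 0.98, and Rpl12, which binds at the base of the stalk, reached 1.06 in APOE4. In each of these the 2 NaCl libraries were the lowest and APOE4 LPS the highest. Rpl13a, Rps6 and Rpsa had 0.56, 0.45 and 0.38 in APOE3 and 0.71, 0.88 and 0.78 in APOE4. Rps2, first in microglia, had 0.40 and 0.79. Rps27rt, Rpl35, Rpl38 and Rps28 had ratios below 0 in APOE3 (-0.36, -0.32, -0.29 and -0.20), none of them called, and above 0 in APOE4 (0.25, 0.22, 0.22 and 0.44). Rps19bp1 was called lower in APOE3 (-0.33) and had -0.30 in APOE4, which did not reach the call.

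**Figure D4:**
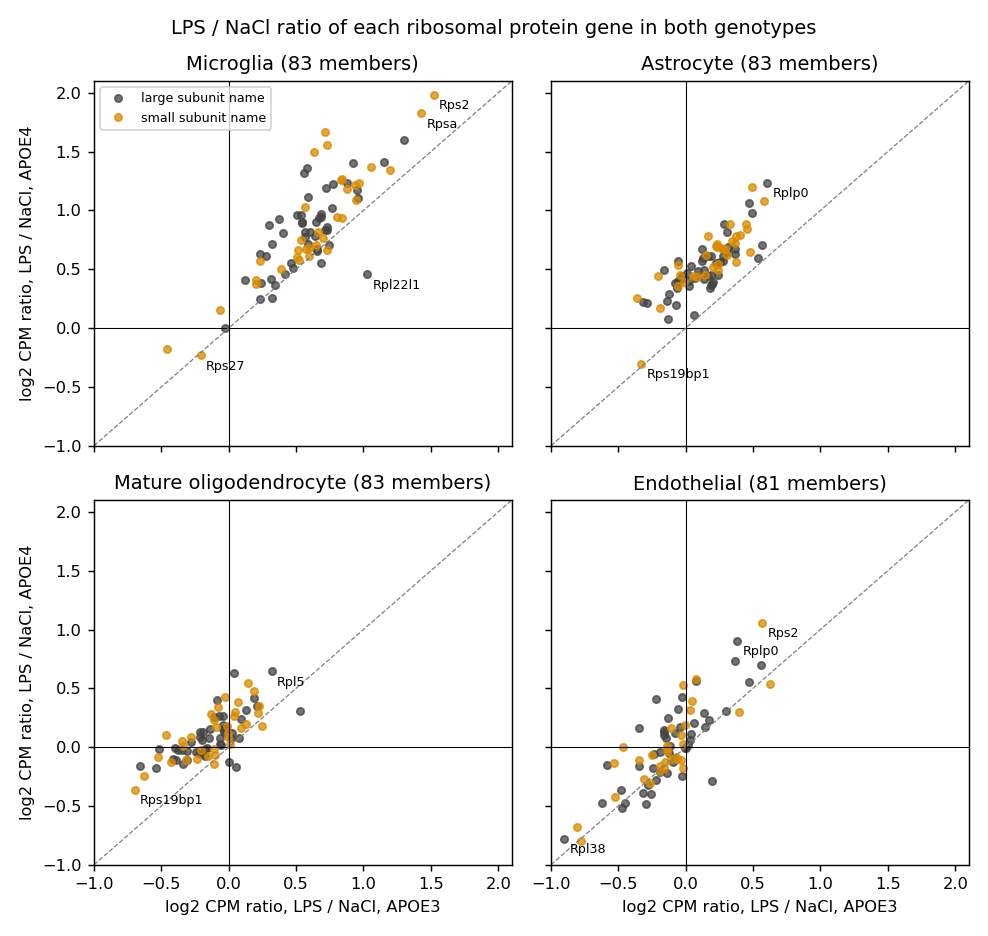
Log2 CPM ratio of LPS to NaCl for each ribosomal protein gene with at least 200 UMIs, APOE3 on the x axis and APOE4 on the y axis, in 4 classes; the dashed line marks equal ratios. Most genes lie above 0 on both axes in microglia, above the dashed line in astrocytes, and around 0 in mature oligodendrocytes and endothelial cells.

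Microglia markers moved with the astrocyte difference. The microglia markers summed to 215, 314, 143 and 678 CPM in astrocytes. Cluster 10, with 24 cells in APOE3 LPS and 78 in APOE4 LPS, held 4827 and 6062 CPM of them beside its astrocyte markers, and a ribosomal protein share of 6.25% and 7.63%. Without that cluster the ratio was 0.09 in APOE3 and 0.37 in APOE4. In APOE3 11 of 84 genes were then higher and 2 lower, against 11.4% and 18.4% of all genes. In APOE4 50 were higher and 1 lower, against 17.9% and 16.4%. Without all astrocytes that held 3 or more UMIs of microglia markers (131, 178, 105 and 208 cells) the shares were 1.85, 1.89, 1.85 and 2.29%. The ratios were 0.03 and 0.31. Of 84 genes 6 were higher and 5 lower in APOE3, against 10.6% and 19.1% of all genes. In APOE4 41 were higher and 0 lower, against 16.4% and 17.2%. APOE4 LPS remained the highest library. Some other settings raised the ratios, to 0.43 in APOE3 with doublets kept in all libraries and to 1.21 in APOE4 over cells of at least 2000 UMIs. Others lowered them from the values over all astrocytes. Both ratios were lower with the ribosomal genes used in clustering, and the APOE4 ratio was lower at a lower cell filter.

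Astrocytes also differed by cluster. The largest astrocyte cluster was cluster 3 in both APOE3 libraries and in APOE4 LPS (35.7% of astrocytes there), and cluster 2 in APOE4 NaCl (53.9%). Within cluster 2 the share was 2.04, 2.20, 2.02 and 2.18%, without a difference between the LPS libraries beyond their intervals, and within cluster 3 it was 1.55, 1.63, 1.61 and 2.05%. In cluster 3 the APOE4 LPS cells also held 571 CPM of microglia markers against 139 to 198 in the others. Cluster 4, led by Gfap, Iigp1 and Gbp2, held 59, 206, 13 and 809 cells. Its share was 5.74% in the APOE3 NaCl cells and 3.52% and 3.0% in the LPS cells of APOE3 and APOE4, with 135 to 187 CPM of microglia markers. Those 59 cells of APOE3 NaCl held fewer astrocyte markers than the LPS cells of the cluster (13733 against 23012 and 17112 CPM). They held more markers of ependymal cells (544 against 152 and 140 CPM), choroid plexus epithelium (1171 against 319 and 615 CPM), monocytes (364 against 104 and 77 CPM) and neurons (254 against 98 and 86 CPM). Without clusters 4 and 10 the APOE4 ratio was 0.19, with 17 of 84 genes higher and 1 lower, against 14.4% and 17.2% of all genes. Lcn2, which is among the leading genes of the unnamed cells of APOE4 LPS, was at 0.19, 114, 0.07 and 993 CPM in astrocytes. In those unnamed cells it was at 1869 CPM. Saa3, another leading gene, was at 11082 CPM in those unnamed cells and at 0.58, 19.4, 0.07 and 162 CPM in astrocytes. Ttr, a choroid plexus marker, was at 18509 CPM in those unnamed cells and at 692, 977, 931 and 915 CPM in astrocytes. The part of these measures in the result was not tested.

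In astrocytes few of the other translation genes were called higher in APOE3, where 12.3% of all genes were called higher and 18.3% lower, against 19.8% and 17.1% in APOE4. Of 52 ribosome biogenesis genes 1 was called higher and 8 lower in APOE3, and 3 higher and 1 lower in APOE4. Of 78 mitochondrial ribosome genes 1 and 2 were higher, and of 83 nuclear oxidative phosphorylation genes 3 and 2 were higher and 10 and 9 lower. Elongation and termination factors were higher in 1 of 10 cases in APOE3 and 6 of 10 in APOE4, led by Eef1b2 (88 to 155 CPM) and Eef1a1 (355 to 599 CPM). By the same call 20 and 22 of 22 interferon-stimulated genes were higher, and 13 and 16 of 18 immediate-early genes.

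Mature oligodendrocytes, the myelin-forming cells, held 4.19, 3.81, 4.31 and 4.57%, so the LPS libraries lay on either side of the NaCl libraries. With LPS in APOE3, 1 of 83 genes was higher and 16 lower, against 18.7% and 24.3% of all genes, and in APOE4 11 were higher and 1 lower, against 25% and 22.0%. Shares of called genes were thus below or near those of all genes. Rpl7 was the gene called higher in APOE3 (0.53), Rps19bp1 the one called lower in APOE4 (-0.36), and Rpl5 had the highest ratio in APOE4 (0.64). Rpl35 was 433 CPM in APOE3 NaCl and 274 in APOE3 LPS, and Rps28 513 and 332. Of 82 nuclear oxidative phosphorylation genes 40 (APOE3) and 36 (APOE4) were lower by the call that 24.3% and 22.0% of all genes passed. Oligodendrocytes of the NaCl libraries were mostly in cluster 0 and those of the LPS libraries in cluster 15. With doublets kept in all libraries the ratio turned to 0.06 in APOE3.

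Endothelial cells, which line the vessels, held 9.45, 8.34, 9.49 and 8.99%, lower with LPS in both genotypes (-0.18 and -0.08). In APOE3, 7 of 83 genes were higher and 15 lower, against 21.7% and 31.0% of all genes, and in APOE4 13 were higher and 12 lower, against 29.2% and 31.2%. Single genes differed more than the group. Rps2 was 942 and 1398 CPM in APOE3 and 714 and 1488 in APOE4 (0.57 and 1.06), and Rplp0 had 0.38 and 0.90. Rpl38 was 2904 and 1553 CPM in APOE3 and 3071 and 1792 in APOE4 (-0.90 and -0.78), Rps27 had -0.77 and -0.80, and Rps21 -0.81 and -0.68. Rps2 and Rplp0 were thus called higher in both microglia and endothelial cells, while Rps27 was called lower in endothelial cells alone of these 2 classes. NaCl cells were mostly in cluster 7 and LPS cells in cluster 8. Within cluster 7 the share was 8.98, 8.62 (25 cells), 9.49 and 8.97% (46 cells). In cluster 8 it was 15.3% in 46 cells of APOE3 NaCl, against 8.33% and 9.0% in the LPS libraries. The APOE4 ratio turned to 0.15 with doublets kept, 0.11 at a finer clustering and 0.16 at a lower cell filter. At these settings APOE4 LPS held 410, 1321 and 1513 endothelial cells in place of 401. APOE4 NaCl held 662, 605 and 788 in place of 605.

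In oligodendrocyte precursors the share was 1.5% (139 cells), 2.94% (232), 1.53% (168) and 3.23% (101). The median cell held 0.71, 1.07, 1.02 and 2.33%. Markers of mature oligodendrocytes moved with it (1092, 6501, 1519 and 3331 CPM), as did those of microglia (227, 529, 179 and 675 CPM), and their part was not tested. In mature neurons of APOE4 LPS 76.8% of cells were in cluster 12, of few UMIs, with a share of 10.8%, whereas within cluster 24, which held most neurons of the other libraries, the share was 2.46, 2.38, 1.97 and 2.93%.

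Between the genotypes after NaCl the group did not differ by more than 0.04 in any of the 4 classes. The log2 ratio of APOE4 to APOE3 was -0.01 in microglia, -0.02 in astrocytes, 0.04 in oligodendrocytes and 0.01 in endothelial cells. In microglia 1 of 84 genes was higher in APOE4 and 3 lower (all genes 6.78% and 7.91%), and in astrocytes 1 and 0 (4.74% and 10.1%). In oligodendrocytes 0 of 83 were higher and 2 lower (7.68% and 7.98%), and in endothelial cells 2 and 6 (10.6% and 16%). The higher ones were Rpl39l in microglia (19 and 76 UMIs), Rpl3l in astrocytes (12 and 26 UMIs), and Rpl22l1 and Rps27rt in endothelial cells. Among the lower ones were Rps15 and Rpl23a in microglia, oligodendrocytes and endothelial cells, and Rps2, Rpl12 and Rpl31 in endothelial cells. Rps15 was 553 CPM in APOE3 and 379 in APOE4 microglia (-0.55), and had -0.05 in astrocytes, -0.36 in oligodendrocytes and -0.42 in endothelial cells. Rpl23a, a protein at the exit of the nascent chain, had -0.47 in microglia, -0.23 in astrocytes, -0.34 in oligodendrocytes and -0.56 in endothelial cells, while Rpl22l1 had 0.22, 0.21, 0.31 and 0.40. The classes share the same pair of libraries, so these values are not independent.

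Between the genotypes after LPS all 4 classes were higher in APOE4 (endothelial cells not at 2000 to 6000 UMIs a cell, at -0.08, nor thinned or as a mean over cells, at -0.01), by 0.20 in microglia, 0.37 in astrocytes, 0.26 in oligodendrocytes and 0.11 in endothelial cells. In microglia 16 of 84 genes were higher and 1 lower (all genes 13.8% and 10.7%). In astrocytes 54 were higher and 1 lower (17.4% and 8.64%), in oligodendrocytes 23 and 0 of 83 (17.5% and 7.19%) and in endothelial cells 4 and 0 of 83 (21.5% and 16.1%), the 4 being Rps27rt, Rps28, Rps26 and Rpl35. In microglia high ratios were those of Rps27l (274 and 421 CPM, 0.62), Rpl41, the smallest ribosomal protein (2052 and 3050 CPM, 0.57) and Rpl38 (1687 and 2416 CPM, 0.52), and the 1 lower was Rpl22l1 (-0.35). In astrocytes the highest with over 200 CPM were Rps28 (0.61), Rps4x (0.55) and Rpl32 (0.54), and Rps19bp1 was nearly equal (0.05), while the 1 called lower was Rpl3l with 24 and 11 UMIs. Without astrocyte cluster 10 the ratio was 0.28, with 22 genes higher and 1 lower (all genes 15.8% and 8.34%). Without clusters 4 and 10 it was 0.16, with 3 higher and 0 lower (13% and 10.3%). In cluster 2 alone it was -0.01, with 1 higher and 2 lower (13.6% and 15.1%). In cluster 3 alone the median gene had 0.31, with 38 of 84 higher and 0 lower (16.2% and 13.2%). The microglia ratio was 0.02 with doublets kept in all libraries, 0.03 at a finer clustering and 0.08 over cells of at least 2000 UMIs. In oligodendrocytes Ttr, a choroid plexus marker, was at 563, 315, 391 and 3976 CPM. Their share with LPS was 2.58% in APOE3 and 5.70% in APOE4 in cells of 1000 to 2000 UMIs. From 8000 UMIs it was 3.25% and 3.81%. The part of depth and of such transcripts was not tested.

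The LPS effect in APOE4 minus that in APOE3, for which no test was possible, was 0.40 (0.39 to 0.41 by counting error) in astrocytes and 0.22 in microglia. The median over single genes was 0.39 in astrocytes (83 genes) and 0.22 in microglia (84 genes), all from the same libraries. The 2 comparisons share no library. In astrocytes without cluster 10 the difference was 0.28, without clusters 4 and 10 it was 0.11, and within cluster 2 it was below 0.01. Within cluster 3 it was 0.28. Over all astrocytes it was larger at 2 other cell filters, 0.95 over cells of at least 2000 UMIs and 0.98 with at most 10% mitochondrial UMIs, and 0.69 at a finer clustering. It was smaller than 0.40 at a lower cell filter and with the ribosomal genes used in clustering. In microglia it was 0.03 with doublets kept and 0.05 at a finer clustering, most of it being absent under these settings.

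The makeup of the group differed between classes. Over 83 genes with at least 200 UMIs in a class, the mean share of the group's UMIs differed between the highest and lowest class by a median ratio of 1.77, and for 56 genes by under 2. Rpl22l1 took 0.972% of the group in mature neurons (0.592 to 1.26% over libraries) and 0.127% in neutrophils. Rps27l took 0.654% and Rpl41 4.15% in choroid plexus epithelium, against 0.142% and 1.32% in T or NK cells. Rpsa took 1.63% in mature oligodendrocytes (1.57 to 1.80%) and 0.590% in choroid plexus epithelium (0.513 to 0.666%). Rplp1 was highest in microglia, at 3.71% (3.6 to 3.88%). Rps9 took 7.35% in neutrophils, seen in 1 library of 114 cells, and 0.821 to 1.20% in neurons. Neutrophils of that library also held 26 of the 155 UMIs of Rpl3l (45.8 CPM), which was noticed after the values were seen.

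**Figure D5:**
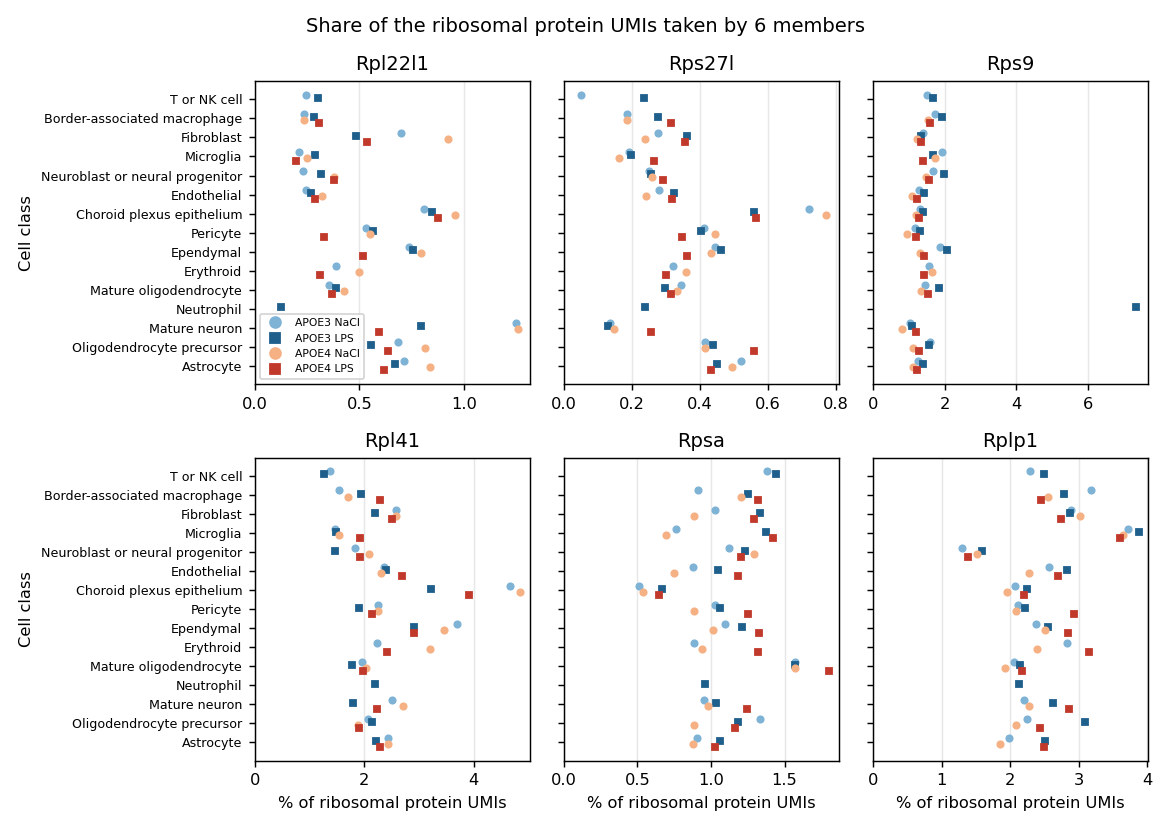
Share of all ribosomal protein UMIs (x axis, percent) taken by 6 genes in each class (y axis) and library with at least 50 cells. Rpl22l1 is highest in mature neurons, Rps27l and Rpl41 in choroid plexus epithelium, Rpsa in mature oligodendrocytes, Rplp1 in microglia, and Rps9 in the neutrophils of the APOE3 LPS library at 7.35%.

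The genes most like the group were sought over 54 sums of class and library from 15 classes, which share libraries and depth, among 1883 genes of at least 100 CPM. Pearson's r of log2 CPM with the group's log2 share was high for Eef1b2 (0.98), Rack1 (0.98), Eef1a1 (0.96), Tpt1 (0.95) and Fau (0.95). Rack1 and Fau encode components of the ribosome that the symbol rule does not take, and Eef1b2 and Eef1a1 elongation factors. Gm10076, Eif3f, Naca and Eef2 also ranked among the first 10, at 0.89 to 0.91. Among members of at least 100 CPM, Rpl22l1 (0.69) and Rps27l (0.78) were least like the whole.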

How the data were processed

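Droplet 3′ single-cell RNA libraries were measured in 4 groups of 1 library each. The authors deposited UMI counts per gene and barcode, which per the file headers came from Cell Ranger 7.0.1 (7.0 with the mm10 genome, per the submitters' processing notes). UMI counts of 3′ ends are not divided by gene length, so levels of different genes are not per length. Barcodes were kept with at least 500 genes, 1000 UMIs and at most 20% mitochondrial UMIs. Doublets were called with Scrublet at 0.8% per 1000 cells. Cells were clustered with scanpy 1.11.5 and igraph 0.11.9 (2000 variable genes without the 86 genes, 30 components, 15 neighbours, Leiden resolution 1) in Python 3.11.15. A cluster was named from at least 3 markers of a type, each 2-fold up and in 25% of cells. Clusters sharing 4 of their 10 leading genes with a larger cluster of another name stayed unnamed. Counts were summed per class and library, and exact intervals at 95% were computed with scipy 1.17.1. Genes were compared with at least 10 UMIs in 1 of 2 libraries, on log2(CPM + 1). The ratio intervals and the calls were tested on simulated counts, while filtering, doublet calling, clustering and naming were not. Named genes were the 5 highest and 5 lowest with at least 200 UMIs per class and comparison, plus a list of stalk, paralog and other members. Members, lists and rules were chosen with earlier results of these data known. Alternatives changed cell filters, doublets, clustering, scaling and thinning. Promoter entries came from RefSeq (GRCm38.p6). Values of 2 genes that these rules name are not reported here.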

Additional observations from a re-analysis of the deposited data

Results flagged for a closer look

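In 4 classes the LPS to NaCl log2 ratio of the ribosomal protein share had opposite signs in APOE3 and APOE4, and the difference was not tested, because each group was 1 library. APOE4 minus APOE3 was 0.22 in mature oligodendrocytes (-0.13 in APOE3 and 0.08 in APOE4) and -0.17 in border-associated macrophages (0.16 and -0.01). In the median macrophage the share was 11.2, 12.2, 10.6 and 14.6%, in the library order of the report, so over single cells it was higher with LPS in both genotypes and more so in APOE4. It was 0.46 in ependymal cells (-0.05 and 0.41), where the microglia markers summed to 190, 266, 337 and 1022 CPM, and the median cell held 7310, 8132, 6961 and 1836 UMIs (212, 168, 133 and 581 cells). It was 1.65 in mature neurons (-0.04 and 1.60), where 76.8% of the APOE4 LPS cells were in a cluster of few UMIs and the microglia markers summed to 118, 522, 175 and 1189 CPM. The part of markers and depth was not tested.

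Clusters without a name, which the comparisons between libraries did not use apart from cluster 29 in 1 alternative, held 9.12% ribosomal protein UMIs in APOE3 LPS and 13% in APOE4 LPS, above the 8.12% of APOE3 NaCl and 7.82% of APOE4 NaCl. Most of these cells were in cluster 22 in both NaCl libraries (97.3% and 93.6%), in cluster 22 for 57.5% in APOE3 LPS, and in cluster 9 for 84.7% in APOE4 LPS. Within cluster 22 the share was 8.02, 7.42, 7.82 and 7.71%, not higher with LPS.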

How the results depend on the processing

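No paired analysis was possible because each group had 1 library, and no result has a test. In microglia the LPS to NaCl log2 ratio kept its sign over 11 alternatives, at 0.42 to 0.76 in APOE3 and 0.60 to 0.95 in APOE4. The values that follow are for astrocytes, where the ratio was 0.15 (APOE3) and 0.55 (APOE4), APOE4 to APOE3 -0.02 (NaCl) and 0.37 (LPS), and the LPS effect differed by 0.40, with 20, 74, 1 and 55 genes called in these 4 comparisons. They are given in that order, and the cause of the changes was not tested.

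With doublets kept the ratios were 0.43, 0.82, -0.066 and 0.33, with 55 genes called for LPS in APOE3 and 2 for NaCl. With at least 2000 UMIs a cell, LPS in APOE3 gave 0.26, LPS in APOE4 1.21, the genotypes after LPS 0.93 and the difference 0.95. With at least 200 genes and 500 UMIs the values were 0.21, 0.39, -0.035, 0.14 and 0.18, and with at most 10% mitochondrial UMIs 0.16, 1.14, -0.038, 0.94 and 0.98. At 200 genes and 500 UMIs the doublet caller also marked 8418 of 29145 APOE4 LPS cells, which were removed, against 0 in the main setting. This setting thus changed both the filter and the doublets of that library. At Leiden resolution 2, LPS in APOE4 gave 0.84, the genotypes after LPS 0.67 and the difference 0.69. With the ribosomal genes used in clustering the values were 0.073, 0.27, 0.030, 0.23 and 0.20. Without mitochondrial UMIs in the total, LPS in APOE3 gave 0.17, the genotypes after LPS 0.36 and the difference 0.38. Scaled by the median gene the values were 0.21, 0.58, -0.016, 0.36 and 0.37. Thinned to 1000 UMIs the ratios were 0.13, 0.53, 0.043 and 0.44, and as a mean over cells 0.13, 0.53, 0.038 and 0.44. These alternatives nearly repeat each other by construction, because thinning at random keeps each cell's share on average. In cells of 2000 to 6000 UMIs LPS gave 0.13 and 0.43, NaCl 0.068 and the difference 0.31. With at least 50 UMIs a gene, 0 genes were called for NaCl. The share of all genes called was not recorded for the counts of this paragraph.

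The following were chosen after seeing the data. In cluster 3 alone the values were 0.066, 0.35, 0.052, 0.33 and 0.28. For LPS 8 genes were higher and 3 lower in APOE3 (all genes 12.6% and 19.8%), and 48 and 0 in APOE4 (15.5% and 20.7%). In cluster 2 alone the values were 0.11, 0.11, -0.013, -0.0086 and 0.0048, the fourth having turned sign. For LPS in APOE4 9 genes were higher and 2 lower (all genes 14.3% and 20.5%). For NaCl 0 were called (7.70% and 10.6%), and for the genotypes after LPS 1 was higher and 2 lower (13.6% and 15.1%). Without cluster 10 the values were 0.088, 0.37, -0.0049, 0.28 and 0.28, with 13 genes for LPS in APOE3 and 23 for the genotypes after LPS. The 23 were 22 higher and 1 lower (all genes 15.8% and 8.34%), and the 13 are split above. Without clusters 4 and 10 the values were 0.081, 0.19, 0.048, 0.16 and 0.11, with 13, 18 and 3 genes (LPS in APOE3, LPS in APOE4, genotypes after LPS). The 13 were 11 higher and 2 lower (all genes 11.7% and 18.3%), and the other counts are split above. In astrocytes with under 3 microglia-marker UMIs the values were 0.034, 0.31, -0.00068, 0.27 and 0.27, with 11, 41 and 22 genes. The 22, for the genotypes after LPS, were all higher, against 14.4% of all genes. Without cluster 4, LPS in APOE4 gave 0.50, NaCl 0.026 and the difference 0.35. With cluster 29 counted as astrocytes, LPS in APOE4 gave 0.58, the genotypes after LPS 0.41 and the difference 0.43.

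Depth limits Rpl3l, Rpl39l and Rpl10l, which had too few UMIs for most comparisons.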
